A study of Mus musculus with 2 samples.

Results

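The genes described here are the major histocompatibility complex (MHC) genes of the mouse that carry an H2 symbol. They were taken as the protein-coding genes of the RefSeq annotation of mm10 (GRCm38.p6) whose symbol starts with H2-, whatever their length. This gave 38 genes, of which 35 are placed on chromosome 17, among 21521 coding genes on chromosomes 1 to 19 and X. H2-Q8, H2-Q9 and H2-T18 lie on alternate scaffolds and were not analysed here. Of the 35 placed genes, 25 belong to class I, 9 to class II, and 1, H2-Ke6, encodes a steroid dehydrogenase (Hsd17b8) and no antigen-presenting molecule. The measurements were genome-wide profiles of H3K36me2, dimethylated lysine 36 of histone H3, in regulatory T (Treg) cells from spleen on the C57BL/6 background. The compared groups were Nsd2 Treg conditional knock out mice (KO) and wild-type mice (WT), with 1 library each. What drove Cre, how old and how many the animals were, and which antibody was used is not stated in the labels. The design asks how the pattern of the mark differs in Treg cells in which Nsd2, the gene of a methyltransferase that makes H3K36me2, is deleted. With 1 library per genotype no difference has a replicate check, no test between genotypes was possible and no p-value is given.

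MHC class I molecules carry peptides from inside the cell to the surface, where CD8 T cells and natural killer cells read them, and nearly every nucleated cell makes them. Class II molecules carry peptides from endosomes and are read by CD4 T cells. In the mouse they are made mainly by B cells, dendritic cells and macrophages, and T cells make little of them. Both classes sit in a dense cluster of duplicated genes, so that neighbouring members can be close to identical in sequence. H3K36me2 is a mark of intergenic chromatin and of the bodies of many genes.

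Each library came as a list of regions enriched for the mark, called on that library alone. A region counted for a gene when at least 1 bp of it lay inside the annotated gene body, and a gene's covered share is how much of its annotated length, in percent, fell within regions. The tag total was 14789700 in KO and 17158154 in WT, and a 500 bp peak needed 12 tags in KO and 13 in WT. Scaled to 10000000 tags these thresholds are 8.11 in KO and 7.58 in WT. They apply to the score of a peak, and the normalised tag count of a listed region can lie a little below them, down to 7.44 among the KO regions of the H2 genes. The lists held 39745 regions in KO and 54527 in WT. The covered length of chromosomes 1 to 19 and X was 74.3% as large in KO as in WT.

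The labelled cell type was set against marker genes, since cells that make class II could add to the class II values. Of 10 Treg and T cell genes, 9 held a region in KO and 9 in WT, with 17.7% of their pooled length covered in KO and 15.1% in WT. Over all coding genes, 40.8% held a region in KO and 44.6% in WT, with 1.89% of the length covered in KO and 2.53% in WT. Of the 9 Treg and T cell genes with a region, 8 (88.9%) had the larger covered length in KO, against 36.9% of all coding genes with a region. Foxp3, the lineage factor of Treg cells, was covered over 29.9% of its body in KO and 17.6% in WT. Tnfrsf18 was covered over 100% in both, and Ctla4 was at 0 in both. Of 9 B cell genes, 5 (55.6%) held a region in KO and 6 (66.7%) in WT, which is above the share of all coding genes, over 2.48% of their pooled length in KO and 3.41% in WT, with Ms4a1 and Cr2 among those at 0 in both. Of 10 myeloid and dendritic cell genes, 4 (40%) held a region in KO and 5 (50%) in WT, over 2.07% in KO and 2.60% in WT. Siglech, Xcr1, Lyz2, Adgre1 and Cd14 were at 0 in both. Zbtb46, Csf1r, Itgax and Itgam held a region in both, over 2.27% to 5.20% in KO and 3.58% to 5.96% in WT. Flt3 held a region in WT alone, over 0.72%. The B cell genes with the largest differences were Spib, a transcription factor gene, covered over 26.9% in KO and 12.5% in WT, and Fcer2a, the gene of the low-affinity IgE receptor, covered over 0% in KO and 9.16% in WT. Cd79a and Cd79b, the signalling chains of the B cell receptor, were covered over 22.9% and 48.8% in KO, against 14.7% and 39.8% in WT. In bulk cells, fewer cells carrying the mark and less of it per cell cannot be told apart, and the part of other cell types in the values below was not tested.

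The starts of 9 H2 genes are printed because the regions described below lie on or near them, and because the letters show how close the class I genes are to each other. Each line holds the 250 bases before the RefSeq start, 5′ to 3′ on the strand of the gene, from the RefSeq promoter table of GRCm38.p6. Of the 35 placed genes, 32 matched an entry. Capitals mark the letters GGGGATTCCC, which are the match to the NF-kappaB consensus in the H2-K1 window, and the Y box letters ATTGG or CCAAT, the sequence bound by NF-Y. The class I windows of K, D and Q genes are chr17:34000348-34000597 on the minus strand for H2-K1 and, on the plus strand, chr17:35262844-35263093 for H2-D1, chr17:35342057-35342306 for H2-Q2, chr17:35379367-35379616 for H2-Q4, chr17:35424600-35424849 for H2-Q6 and chr17:35438905-35439154 for H2-Q7.
H2-K1: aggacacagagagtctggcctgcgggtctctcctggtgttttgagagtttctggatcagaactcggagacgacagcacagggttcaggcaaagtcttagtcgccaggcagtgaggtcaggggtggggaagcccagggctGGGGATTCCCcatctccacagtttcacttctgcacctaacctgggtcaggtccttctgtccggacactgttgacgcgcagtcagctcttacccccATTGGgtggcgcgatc
H2-D1: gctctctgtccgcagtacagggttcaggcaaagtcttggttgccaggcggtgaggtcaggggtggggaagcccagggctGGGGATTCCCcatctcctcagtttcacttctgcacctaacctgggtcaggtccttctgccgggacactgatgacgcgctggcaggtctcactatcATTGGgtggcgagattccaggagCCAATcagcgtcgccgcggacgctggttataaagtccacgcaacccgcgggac
H2-Q2: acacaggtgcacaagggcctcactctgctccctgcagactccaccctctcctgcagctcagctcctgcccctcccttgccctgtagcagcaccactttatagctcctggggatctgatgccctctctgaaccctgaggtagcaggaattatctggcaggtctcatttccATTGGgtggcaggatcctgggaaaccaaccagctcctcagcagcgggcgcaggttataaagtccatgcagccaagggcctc
H2-Q4: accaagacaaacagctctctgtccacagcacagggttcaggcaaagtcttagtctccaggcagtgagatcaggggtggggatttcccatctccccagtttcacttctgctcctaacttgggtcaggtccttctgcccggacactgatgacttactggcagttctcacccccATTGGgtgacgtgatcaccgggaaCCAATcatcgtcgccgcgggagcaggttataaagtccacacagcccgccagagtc
H2-Q6: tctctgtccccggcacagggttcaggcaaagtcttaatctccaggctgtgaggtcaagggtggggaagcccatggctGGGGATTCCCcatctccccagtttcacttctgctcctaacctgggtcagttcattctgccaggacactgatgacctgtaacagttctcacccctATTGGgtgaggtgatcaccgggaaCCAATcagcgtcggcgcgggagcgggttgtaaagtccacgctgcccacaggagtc
H2-Q7: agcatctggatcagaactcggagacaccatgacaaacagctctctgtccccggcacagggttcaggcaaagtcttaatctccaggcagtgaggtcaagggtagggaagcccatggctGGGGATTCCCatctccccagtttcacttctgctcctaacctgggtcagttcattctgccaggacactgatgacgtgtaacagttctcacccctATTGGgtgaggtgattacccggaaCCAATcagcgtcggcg

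The windows of H2-T23 (chr17:36032702-36032951, minus strand), H2-DMa (chr17:34122582-34122831, plus strand) and H2-DMb2 (chr17:34144999-34145248, plus strand) show a T gene of class I and a pair of class II genes, in the same notation.
H2-T23: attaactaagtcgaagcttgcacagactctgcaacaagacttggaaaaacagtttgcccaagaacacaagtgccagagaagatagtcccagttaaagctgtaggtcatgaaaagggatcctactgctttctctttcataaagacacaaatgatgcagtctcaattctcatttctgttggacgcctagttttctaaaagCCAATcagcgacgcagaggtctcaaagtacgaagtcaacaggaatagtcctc
H2-DMa: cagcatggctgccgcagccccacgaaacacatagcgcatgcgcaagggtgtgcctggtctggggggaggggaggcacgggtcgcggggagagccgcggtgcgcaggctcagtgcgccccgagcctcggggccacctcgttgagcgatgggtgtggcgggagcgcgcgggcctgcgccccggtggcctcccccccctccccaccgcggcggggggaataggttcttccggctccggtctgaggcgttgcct
H2-DMb2: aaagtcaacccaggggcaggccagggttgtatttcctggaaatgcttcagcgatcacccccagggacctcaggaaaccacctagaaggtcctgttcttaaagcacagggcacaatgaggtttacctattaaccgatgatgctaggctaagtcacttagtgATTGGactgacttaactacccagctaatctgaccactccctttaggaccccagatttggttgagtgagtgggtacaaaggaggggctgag

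The Q6 and Q7 windows were 97.2% identical over 211 aligned columns, and those of H2-K1 and H2-D1 87.4% over 191. H2-Q4 and H2-Q7 shared 83.3%, whereas H2-Q2 shared 53.5% to 61.3% and H2-T23 52.9% to 58.5% with the other class I windows printed. The regions of H2-Q6 and H2-Q7 are therefore uncertain as to which of the genes the reads came from, because the treatment of reads with several matches is not stated in the labels or file headers. Motifs were searched on both strands of all 250-base windows, by letters chosen after these sequences were seen. The letters GGGGATTCCC (reverse complement GGGAATCCCC) were in 4 of 23 class I genes with a window, H2-K1, H2-D1, H2-Q6 and H2-Q7, in 0 of 8 class II genes, and in 0.133% of 17274 coding genes. They began 111 bases before the start printed for H2-K1, 171 before that of H2-D1, 173 before that of H2-Q6 and 133 before that of H2-Q7. Only the exact letters of H2-K1 were counted, there and among coding genes. The H2-Q4 window holds ggggatttccc, which also fits the NF-kappaB consensus but was neither counted nor put in capitals. The Y box letters were in 20 of 23 class I and 8 of 8 class II genes, against 39.9% of coding genes, and for H2-DMa they lay in another start window than the one printed. The letters TGACG (reverse complement CGTCA) of a cyclic AMP response element were in 11 of 23 class I and 1 of 8 class II genes and in 22.8% of coding genes. A letter match is a description of the window and not a bound site.

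The H2 genes carried more H3K36me2 regions in KO than in WT, although the whole KO list was the shorter one. Over the 35 genes, 26967 bp were covered in KO and 17984 bp in WT, which is 13.0% of their pooled length in KO and 8.65% in WT. The difference was 4.32 percentage points, with a 95% binomial interval of -0.06 to 8.73 if each 500 bp of gene body is taken as 1 independent unit. This interval covers counting within these libraries and no spread between animals. All coding genes together had 1.89% in KO and 2.53% in WT, and the 8957 coding genes in the length range of the H2 genes (2023 to 19409 bp) had 4.41% in KO and 4.61% in WT. The KO length was 149.95% of the WT length over the H2 genes, 95.7% over the genes of like length and 74.8% over all coding genes. Leaving out H2-Ke6, the H2 genes had 12.1% in KO and 8.27% in WT. The regions that touched an H2 gene numbered 33 in KO, with a mean length of 1232 bp and a mean normalised tag count of 21.6, and 23 in WT, with 1054 bp and 17.5.

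Counted by gene, 18 of 35 H2 genes (51.4%) held a region in KO and 12 (34.3%) in WT, where all coding genes had 40.8% in KO and 44.6% in WT and those of like length 33.8% in KO and 36.0% in WT. Regions were present in both libraries in 10 genes, in KO alone in 8, in WT alone in 2 and in neither in 15. Of 21521 coding genes, 6983 held a region in both libraries and 10117 in neither. Of the 8957 of like length, 2123 held a region in both and 4825 in neither. The 8 genes with a region in KO alone are 22.9% of the H2 genes, where the background is 8.35% of all coding genes and 10.1% of those of like length. Among these, H2-Ab1, H2-Eb1, H2-Q10, H2-T-ps and H2-M5 held only 500 bp KO regions of 7.78 to 8.79 normalised tags, near the KO threshold of 8.11. With regions of at least 10 normalised tags only, 13 H2 genes held a region in KO and 9 in WT. The 2 genes with a region in WT alone are 5.71%, against a background of 12.2% and 12.3%. Of the 20 genes with a region in either library, 14 had the larger covered length in KO, which is 70.0% against 36.9% of all coding genes and 46.0% of those of like length. The other 6 genes (30.0%) had the smaller covered length in KO, against 59.6% of all coding genes. A covered share at least 20 percentage points higher in KO was found in 5 of the 20 genes (25.0%), against 2.43% of all coding genes and 5.01% of those of like length. This count was 3 when the 50% of regions with the highest score were used and 1 when gene bodies were taken with 5 kb on either side. A share at least 20 points lower in KO was found in 1 gene (5%), against 2.31% and 4.33%, and this count ran from 0 to 3 over the 9 other settings. The 5 higher genes were H2-T23, H2-Ke6, H2-Q2, H2-T-ps and H2-D1, and the lower one was H2-Oa. The median difference over the 35 genes was 0 points, as it was over all coding genes, since 15 of the 35 had no region. H2 genes are neighbours and copies of each other, so these counts are not counts of independent genes. Taken gene by gene, the same 500 bp interval spanned 0 for all 20. Short genes hold few such units, so this interval cannot separate single genes. It spanned 0 even for H2-T23 (-10.0 to 91.5), with 54.3% of its body covered in KO and 0% in WT.

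**Figure D1:**
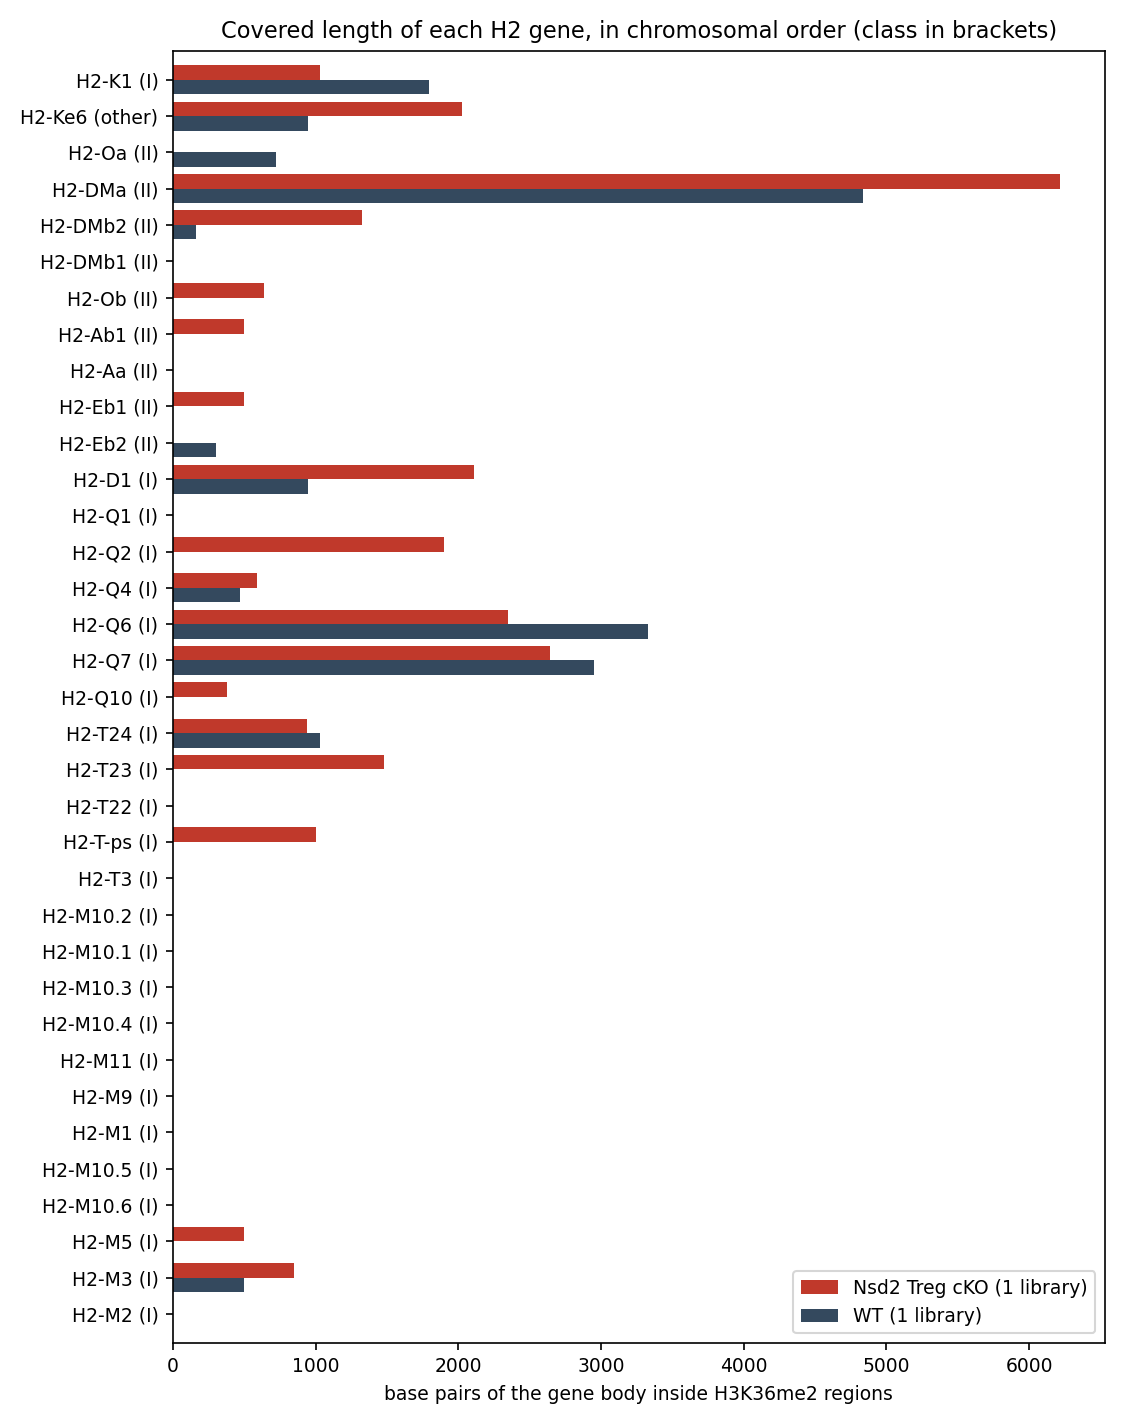
Base pairs of each H2 gene body inside H3K36me2 regions (x axis) for the 35 placed genes in chromosomal order (y axis, class in brackets), 1 bar per library, KO above WT. H2-DMa has the longest bars with 6219 bp in KO and 4833 bp in WT, the Q6 and Q7 bars are longer in WT, and 15 genes have no bar.

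H2-K1 and H2-D1 encode the classical class I heavy chains of this strain, which present peptides to CD8 T cells. H2-K1 (chromosome 17, 33996012 to 34000619) had 1032 bp covered in KO and 1796 bp in WT, or 22.4% of its body in KO and 39.0% in WT. The region over its start, however, was longer in KO, where it ran for 3973 bp (34000087 to 34004060) with 70.7 normalised tags (95% Poisson interval 57.8 to 85.6). The WT region there ran for 1993 bp (34000166 to 34002159) with 34.7 tags (26.5 to 44.7), and the KO region contained it whole. Most of the KO region lay upstream of the gene, where it does not enter the covered share. Inside the body, KO had 1 further region of 500 bp and WT had regions of 713 and 630 bp, none of which shared a base with the other library. The tag density of the start region was 17.8 per kb in KO and 17.4 in WT, and the larger tag count went with the larger extent. Listed regions are stitched from 500 bp peaks that passed a tag threshold, which limits how low their density can lie. Like densities therefore cannot show that the libraries differ in extent alone. Intervals of tag counts cover counting error only, since tags are PCR reads.

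H2-D1 (35263094 to 35267497) had 2111 bp covered in KO and 949 bp in WT, or 47.9% in KO and 21.5% in WT. Its start lay in a KO region of 3006 bp with 55.4 normalised tags (44.1 to 68.8), where WT had a pair of regions of 1728 and 778 bp with 39.6 tags in sum. A KO region of 903 bp at the end of the gene had no WT partner. H2-K1 and H2-D1 together had 34.9% of their length covered in KO and 30.5% in WT, with a difference of opposite sign in the 2 genes. That contrast did not hold in every setting, since both were higher in KO with regions of at least 1 kb (1.71 points for H2-K1 and 29.8 for H2-D1) and with 5 kb on either side (7.78 and 12.7), and both were lower with regions at least 50% inside the gene (-18.3 and -3.45).

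The Q genes encode class Ib molecules, and 5 of 6 held a region in KO and 3 in WT, with 25.0% of the pooled length covered in KO and 21.5% in WT. H2-Q6 and H2-Q7, genes of the Qa-2 antigen, were the most covered class I genes in WT. H2-Q6 (35424850 to 35430055) had 2350 bp in KO and 3329 bp in WT, or 45.1% in KO and 63.9% in WT, in 3 regions in each library. H2-Q7 (35439140 to 35443773) had 2641 bp in KO and 2950 bp in WT, or 57.0% in KO and 63.7% in WT. The longest region of any H2 gene was the KO region over the start of H2-Q7, 5538 bp with 112.2 normalised tags (95.8 to 130.6), opposite 2 WT regions of 3394 and 2618 bp with 107.6 tags in sum. From the start of H2-Q6 to the end of H2-Q7, 50.5% of 18.9 kb was covered in KO and 56.7% in WT.

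H2-Q2 (35342307 to 35346764) had 1896 bp covered in KO and 0 bp in WT, or 42.5% of its body in KO. Its main KO region, of 1868 bp with 28.7 normalised tags (20.7 to 38.7), was the longest region of an H2 gene without a base in the other library. H2-Q4 (35379617 to 35384674) had 592 bp in KO and 470 bp in WT, with a KO region of 1612 bp over its start opposite WT regions of 500 and 761 bp. H2-Q10 (35470089 to 35474563), whose product is a class I molecule secreted by the liver, had 376 bp in KO and 0 bp in WT. H2-Q1 held no region in either library.

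The T genes had 10.4% of their length covered in KO and 3.12% in WT, with a region in 3 of 5 genes in KO and in 1 of 5 in WT. H2-T23 (36029977 to 36032701) encodes Qa-1, the ligand of the inhibitory receptor CD94/NKG2A of natural killer and T cells. It had 1480 bp in KO and 0 bp in WT, or 54.3% of its body in KO, all in 1 region with 23 normalised tags (15.9 to 32.1). H2-T-ps (36109030 to 36111723), listed as coding by RefSeq, had 2 KO regions of 500 bp with 8.45 and 7.78 tags, or 37.1% of its body in KO, and 0 bp in WT. H2-T24 (36003471 to 36020800) was much the same in both, with 937 bp in KO and 1027 bp in WT from a region of 1731 bp and 27.4 tags in KO and of 1834 bp and 29.4 tags in WT. H2-T22, whose product binds some gamma delta T cell receptors, and H2-T3, the thymus leukaemia antigen of gut epithelium, held no region in either library.

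The M genes had 2.71% of their length covered in KO and 1% in WT. This was 4.41% in KO and 4.61% in WT over coding genes of like length, and 1.89% and 2.53% over all coding genes. Of the 12 M genes, 10 held no region in either library. The background was 10117 of 21521 coding genes and 4825 of 8957 of like length. These 10 were H2-M10.1 to H2-M10.6 with H2-M1, H2-M2, H2-M9 and H2-M11, and the M10 family is known for its expression in vomeronasal sensory neurons. H2-M3 (37270234 to 37274485), which presents formylated peptides of bacteria and mitochondria, had 851 bp in KO with 15.9 normalised tags (10.1 to 23.8) and 500 bp in WT with 7.87 tags (4.25 to 13.3). H2-M5 (36983785 to 36997955) had 1 KO region of 500 bp with 8.45 tags and 0 bp in WT.

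Among class II genes the covered length sat mainly in the DM genes, whose product catalyses peptide exchange on class II molecules in endosomes. The DM genes had 21.7% of their length covered in KO and 14.4% in WT, and held 82.2% of the class II covered length in KO and 83.0% in WT. H2-DMa (34119693 to 34139101), the alpha chain gene, had 6219 bp in 7 regions in KO and 4833 bp in 4 regions in WT, or 32.0% in KO and 24.9% in WT. The start whose window is printed above lay in a region of 1928 bp in KO with 46.7 normalised tags (36.3 to 59.1). In WT the region there had 1686 bp and 25.6 tags (18.6 to 34.4). Here the tag density was 24.2 per kb in KO (18.8 to 30.7) and 15.2 in WT (11.0 to 20.4). The annotated body of H2-DMa shares 3122 bp with Brd2, the gene of a chromatin reader, and regions there cannot be assigned to either gene. This stretch held 1744 bp of the start region in KO and 1531 bp in WT. Outside Brd2, 4475 bp were covered in KO and 3302 bp in WT, or 27.5% in KO and 20.3% in WT. H2-DMb2 (34143229 to 34151553), a beta chain gene, had 1323 bp in KO and 158 bp in WT. Its KO region of 1242 bp over the start, with 21.0 tags (14.3 to 29.8), had no WT partner. H2-DMb1, the other beta chain gene, held no region in either library.

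The remaining class II genes had 3.42% of their length covered in KO and 2.14% in WT. H2-Oa (34092379 to 34095234) and H2-Ob (34238905 to 34245908) encode DO, an inhibitor of DM, and they went in opposite directions. H2-Oa had 0 bp in KO and 724 bp in WT, which is 25.4% of its body in WT, from 1 region of 10.8 normalised tags (6.46 to 16.96). H2-Ob had 636 bp in KO and 0 bp in WT, from 1 region of 10.1 tags (5.65 to 16.7). The A and E genes had 2.63% covered in KO and 0.79% in WT. H2-Ab1 (34263227 to 34269418) and H2-Eb1 (34305867 to 34316674) each had 1 KO region of 500 bp with 7.78 tags and 0 bp in WT. H2-Eb2 (34325503 to 34341410) had 0 bp in KO and 299 bp in WT, from a region of 500 bp with 8.74 tags, and H2-Aa held no region in either library. The KO regions of H2-Ab1 and H2-Eb1 had scores of 12 tags, the lowest that the KO list allowed.

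H2-Ke6 (34026033 to 34028055) had 2023 bp covered in KO and 949 bp in WT, which is 100% of its body in KO and 46.9% in WT. A KO region of 3042 bp with 44.3 normalised tags (34.2 to 56.4) lay opposite WT regions of 795 and 821 bp with 24.7 tags in sum. The density was 14.6 tags per kb in KO and 15.3 in WT, and the larger tag count again went with the larger extent. The limit that the calling sets on density holds here too.

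**Figure D2:**
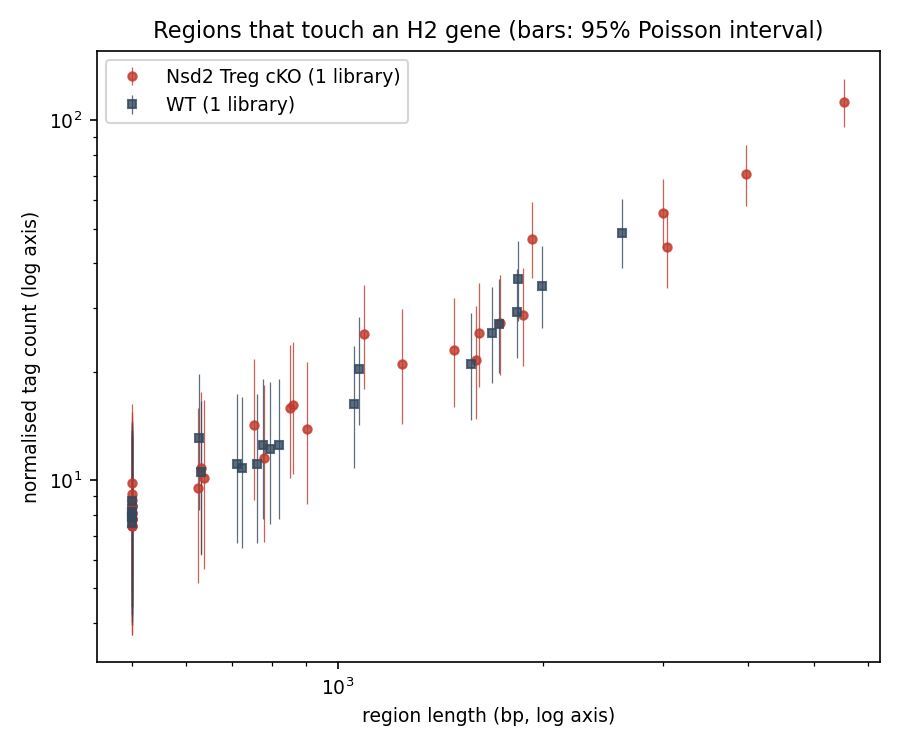
Normalised tag count (y axis, log scale) against region length (x axis, log scale) for the 33 KO and 23 WT regions that touch an H2 gene, with 95% Poisson intervals as bars. Points of both libraries lie along 1 band, with a mean density of 17.5 tags per kb in KO and 16.6 in WT. A 500 bp peak needed 8.11 normalised tags in KO and 7.58 in WT, which limits how low the density of a listed region can lie. The longest region, of 5538 bp, is a KO region over H2-Q7.

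Class I and class II were set side by side by their pooled values. Class I genes had 15766 bp covered in KO and 11021 bp in WT, or 12.8% of their length in KO and 8.94% in WT. Class II genes had 9178 bp in KO and 6014 bp in WT, or 11.1% in KO and 7.28% in WT. The difference was 3.85 points for class I (interval -1.94 to 9.67) and 3.83 points for class II (-2.86 to 10.6), on the same 500 bp units. The values lay farther apart in other settings, being 2.43 for class I and 0.53 for class II with regions of at least 1 kb, 0.58 and 3.39 with the 50% of highest score, and 1.03 and 3.92 with regions at least 50% inside the gene. A region was present in 12 of 25 class I genes (48%) in KO and in 7 (28%) in WT, and in 5 of 9 class II genes (55.6%) in KO and in 4 (44.4%) in WT. All coding genes had 40.8% in KO and 44.6% in WT, and those of like length 33.8% and 36.0%. Of the genes with a region in either library, 8 of 12 class I (66.7%) and 5 of 7 class II genes (71.4%) had the larger covered length in KO. This was 36.9% over all coding genes and 46.0% over those of like length. A region in WT alone was found in 0 of 25 class I and in 2 of 9 class II genes (22.2%), H2-Oa and H2-Eb2. The background was 12.2% of all coding genes and 12.3% of those of like length, and the difference between the classes was not tested. Without the M genes class I had 19.6% of its length covered in KO and 14.3% in WT.

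**Figure D3:**
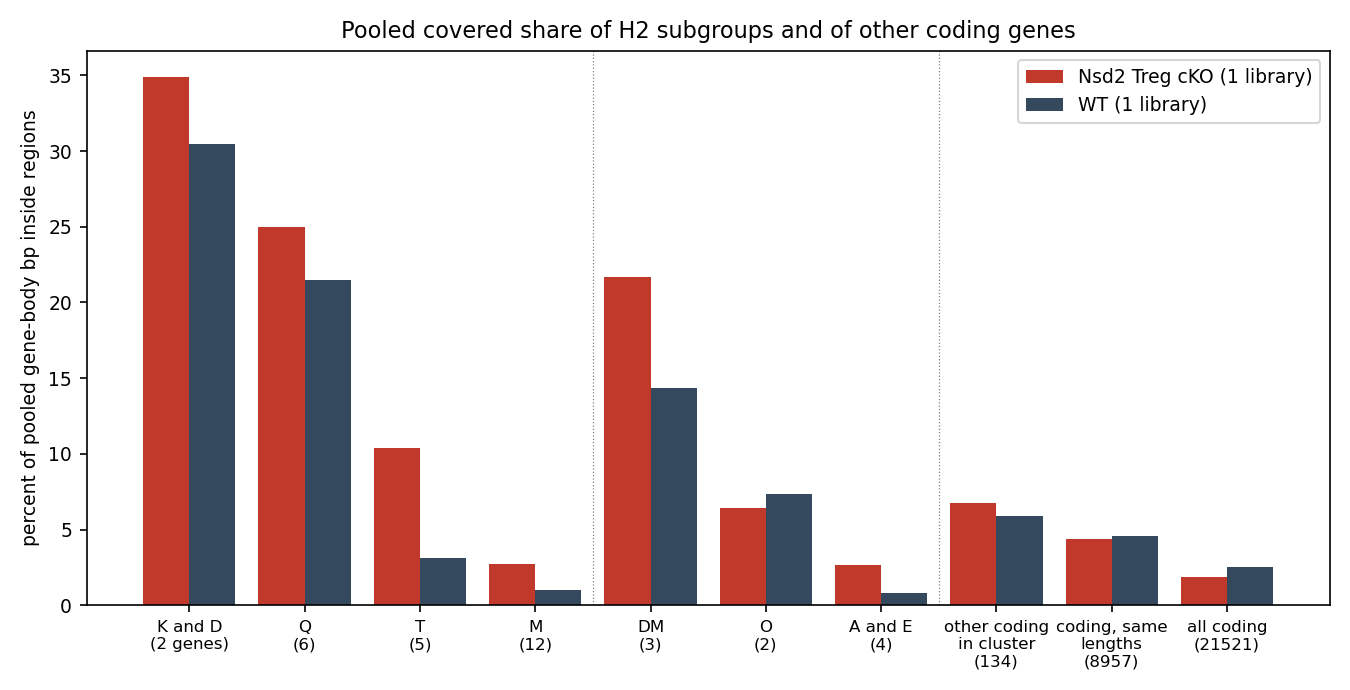
Percent of pooled gene-body length inside regions (y axis) for 7 subgroups of H2 genes, the other coding genes of the cluster, coding genes of the same length range and all coding genes, KO left of WT. The KO bar is the taller one in every H2 subgroup except O, and for all coding genes it is the shorter one.

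The starts of the genes were looked at on their own, in windows from 250 bp before to 50 bp after each RefSeq start. Of the 32 H2 genes with such a window, a region touched it in 7 in KO (21.9%) and in 8 in WT (25.0%), where the background was 11.4% of coding genes in KO and 11.5% in WT. A gene with several start windows was counted when a region touched any of them. H2-K1, H2-D1, H2-Q4, H2-Q7, H2-DMa and H2-Ke6 were touched in both, which is 18.8% against 5.83% of coding genes. For H2-DMa this was the window printed above, where the region lies mostly in the stretch shared with Brd2. Its other start window (34125268 to 34125567) was touched in neither library. The start of H2-DMb2 was touched in KO alone, and those of H2-Q6 and H2-Eb2 in WT alone. At the starts the libraries were thus close in number. Of the 33 KO regions that touched an H2 gene, 16 had no WT partner. The share of regions without a partner over the whole lists was not computed, so counts of such regions have no background here. These 16 had a median length of 562.5 bp and 8 of them were 500 bp long, the smallest size in the list. Of the 23 WT regions, 5 had no KO partner, with a median length of 630 bp, and 2 of them were 500 bp long. Genome-wide, regions of 500 bp made up 54.3% of the KO list and 52.7% of the WT list.

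Along the cluster, from the start coordinate of H2-K1 to the end of H2-M2 (33996012 to 37483554, 3488 kb), regions covered 171709 bp in KO and 154630 bp in WT. KO had 111% of the WT length (interval 94.95 to 129.9 on 500 bp units) and 196 regions against 178. On chromosome 17 outside the cluster, KO had 75.6% of the WT length, a figure over genes of all lengths and the sequence between them. Over coding genes this ratio was 74.8% for all and 95.7% for those in the length range of the H2 genes. The mean region in the cluster was 876 bp long with 15.2 normalised tags in KO and 869 bp with 13.9 tags in WT. From H2-K1 to H2-Eb2 the covered length was 43616 bp in KO and 32834 bp in WT, or 133% of WT. From H2-D1 to H2-Q10 it was 25756 bp in KO and 24993 bp in WT, or 103%. Over the T genes, from H2-T24 to H2-T3, it was 8824 bp in KO and 4226 bp in WT, or 209%, in 11 regions in KO and 5 in WT. Between H2-Q10 and H2-T24, a stretch without H2 genes, it was 22567 bp in KO and 26651 bp in WT, or 84.7%. Over the M genes it was 2351 bp in KO and 3644 bp in WT, which is 0.20% of 1199 kb in KO and 0.30% in WT. In windows of 100 kb, 13 of 35 had the larger length in KO, 14 the smaller, 1 was equal and 7 were empty in both. The most covered window was the one with H2-D1, with 25014 bp in KO and 21990 bp in WT.

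**Figure D4:**
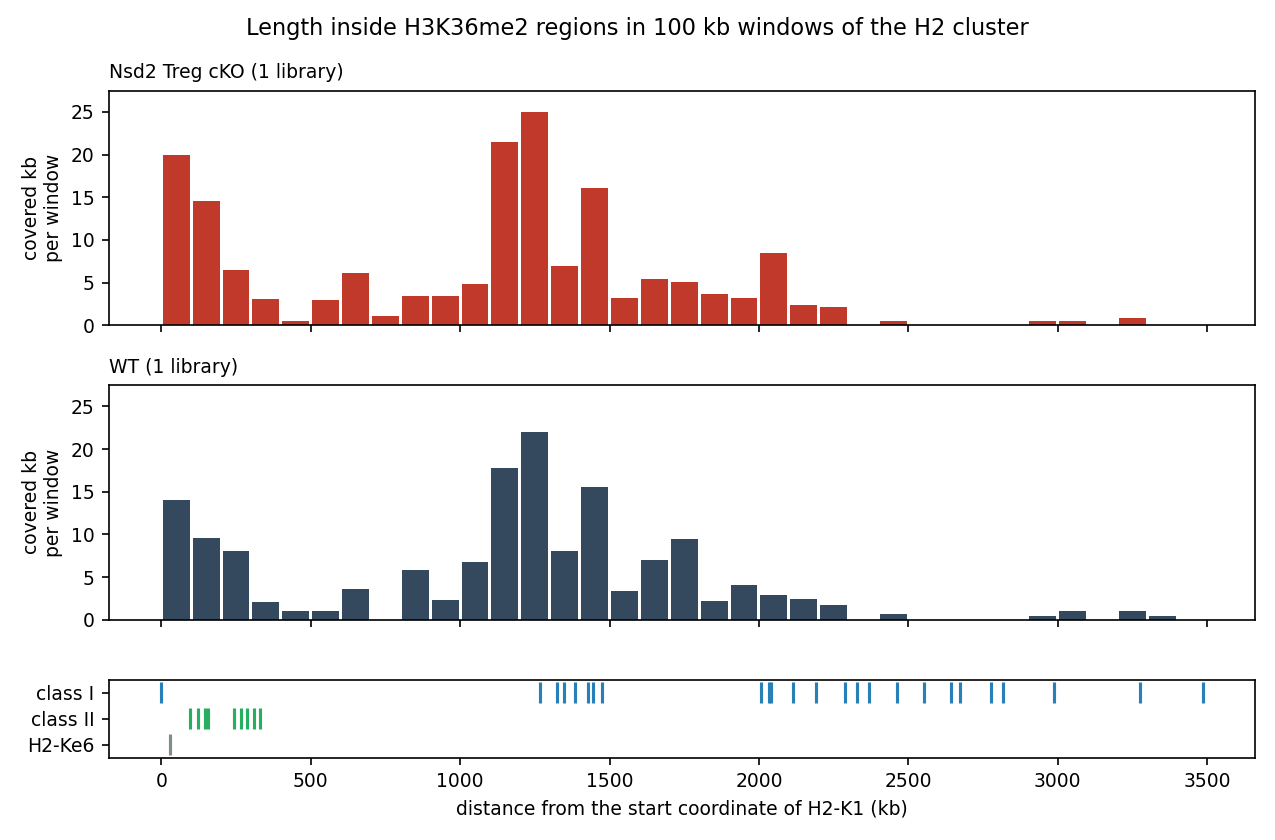
Kilobases inside H3K36me2 regions per 100 kb window (y axes) against distance from the start coordinate of H2-K1 (x axis, kb), KO above WT, with the positions of class I genes, class II genes and H2-Ke6 below. Covered length sits at the K and class II end and around H2-D1 and the Q genes in both libraries, and the M end is almost empty.

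The 134 other coding genes between the H2 genes stood closer to parity. They had 77162 bp covered in KO and 67973 bp in WT, or 6.73% of their pooled length in KO and 5.93% in WT. KO had 114% of the WT length, against 95.7% over coding genes in the length range of the H2 genes and 74.8% over all coding genes. A region was present in 55 of them (41.0%) in KO and in 53 (39.6%) in WT. All coding genes had 40.8% in KO and 44.6% in WT, and those in the length range of the H2 genes 33.8% and 36.0%. Of 71 with a region in either library, 38 (53.5%) had the larger length in KO, against 36.9% of all coding genes and 46.0% of those in that range. A share at least 20 points higher in KO was found in 7 of the 71 (9.86%), against 2.43% of all coding genes and 5.01% of those in that range. A share at least 20 points lower was found in 1 (1.41%), against 2.31% and 4.33%. The largest differences were in D17H6S53E, with 50.9% of its body covered in KO and 0% in WT, Lst1, with 55.1% in KO and 100% in WT, and Atp6v1g2, a proton pump subunit gene, with 68.7% in KO and 33.0% in WT. The larger length of KO in the cluster was therefore not limited to H2 genes.

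The partners of the H2 molecules in antigen processing had a smaller summed length in KO than in WT, while most of them by number had the larger length in KO. Over 30 genes of peptide loading, class II assembly and MHC transcription, 25571 bp were covered in KO and 30152 bp in WT, or 1.61% of their length in KO and 1.90% in WT. KO had 84.8% of the WT length, against 74.8% over all coding genes, and 94.2% without Cd74. A region was present in 21 of the 30 (70%) in KO and in 22 (73.3%) in WT, against 40.8% and 44.6% of all coding genes. Of 25 with a region in either library, 15 (60%) had the larger length in KO and 10 (40%) the smaller, against 36.9% and 59.6% of all coding genes. Cd74, the invariant chain that guides class II molecules to endosomes, had the largest difference of the list, with 762 bp in KO and 3806 bp in WT, or 8.66% of its body in KO and 43.2% in WT. It was the only one of the 25 (4%, against 2.31% of all coding genes) that was at least 20 points lower in KO, and 0 were at least 20 points higher. Tapbp, the tapasin gene of class I peptide loading, had 20.8% in KO and 5.10% in WT. Psmb8, an immunoproteasome subunit gene, had 0% in KO and 14.9% in WT.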

How the data were processed

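For each library the authors deposited a region list, made with HOMER findPeaks in histone style, without a control library, from peaks of 500 bp stitched into regions, per the file headers. Trim Galore, Bowtie2, Picard, HOMER and deepTools on the mm10 build are named, without versions, in the submitters' processing notes. The signal value is the number of tags in a region after the authors scaled both libraries to 10000000 tags, per the file headers. The score deposited by the authors has the range of tag numbers in single peaks, and region lengths are as deposited. With totals made equal, a gain or loss of the mark over the whole genome cannot be seen.

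Covered base pairs were computed from merged regions over RefSeq gene bodies of GRCm38.p6, genes that overlap sharing regions, in Python 3.11.15 with numpy 2.4.6, pandas 2.3.3 and scipy 1.17.1. Promoter windows were aligned pairwise with Biopython 1.88, ends free. Tag intervals are exact Poisson, share intervals exact binomial combined for differences, at 95%. A difference of 20 points is a rule of size. The code was tested on simulated regions. Every H2 gene with a region is named, and of the gene lists the 3 with the largest difference. Markers of cell types were named as fixed for the cell type check. The H2 genes, lists and rules were chosen with earlier results of these data known. Alternatives were 9 planned and 3 chosen after seeing the data.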

Additional observations from a re-analysis of the deposited data

How the results depend on the processing

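The pooled difference of the H2 genes stayed higher in KO under 9 other settings (2.49 to 8.80 points), as did class I (0.58 to 8.27) and class II (0.53 to 7.67). The cluster ratio stayed above parity (104.4% to 149.4%) where it was recomputed. Some settings could only raise KO against WT. These held WT regions to the scaled KO threshold, kept as many WT regions as KO had, or divided KO shares by the genome-wide ratio. In the remaining settings the H2 difference was 2.49 to 4.45 points. There class I ran from 0.58 to 3.48, class II from 0.53 to 4.71 and the cluster ratio from 104.4% to 116.8%. With regions of at least 1 kb only, 11 genes held a region in KO and 6 in WT. With WT regions of 500 bp held to the scaled KO threshold of 13.9 tags, the cluster had 130.0% of the WT length. Genes at least 20 points lower in KO numbered 3 with at least 10 normalised tags, 2 with regions closer than 1 kb merged, 2 with regions at least 50% inside the gene and 0 with 5 kb on either side, where those at least 20 points higher numbered 1. With the 50% of regions of highest score, 11 genes held a region in KO and 3 were at least 20 points higher. With KO shares divided by the genome-wide ratio of 74.3%, the H2 difference was 8.80 points and the cluster ratio 149.4%. H2-D1 turned to -3.45 points with regions at least 50% inside the gene. Its KO start region has 1485 of 3006 bp inside the gene and so fell just short of that limit. Of 180 combinations of gene and setting, those that could only raise KO included, 147 kept their direction, 12 turned and 21 came to 0. H2-Ke6, H2-Q2, H2-T23 and H2-DMb2 kept theirs in all 9, H2-K1 ran from -34.5 to 7.78 points and H2-Q7 from -49.1 to 13.0. In 3 settings chosen after seeing the data, the H2 difference was 3.84 points without H2-Ke6, 4.03 without H2-DMa and 5.19 without H2-Q6 and H2-Q7. Depth sets the smallest region that could be listed, so a gene at 0 bp may hold signal below the peak thresholds of 12 tags in KO and 13 in WT. No paired analysis was possible because each genotype has 1 library.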

Other observations

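The 11 loci with H2 symbols that RefSeq lists as other than coding were mostly bare. H2-K2, a transcribed pseudogene of the K region, had 1003 bp covered in KO and 806 bp in WT, or 24.3% of its body in KO and 19.5% in WT. H2-T10 had 0 bp in KO and 500 bp in WT, and H2-M6-ps 0 bp in KO and 477 bp in WT. The other 8, among them H2-Ea, the E alpha chain locus, had 0 bp in both.

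Among the genes between the H2 members, the lymphotoxin and TNF neighbours were chosen after their values were seen. Ltb, which encodes the membrane anchor of lymphotoxin, had 1799 bp covered in KO and 1683 bp in WT, or 100% of its body in KO and 93.6% in WT. Lta, the lymphotoxin alpha gene, had 2348 bp in KO and 2222 bp in WT, or 97.3% in KO and 92.0% in WT. Tnf, which lies between them, had 697 bp in KO and 1090 bp in WT, or 26.4% in KO and 41.3% in WT.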
